A study of Homo sapiens with 16 samples.

Results

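The genes described here encode 10 enzymes of glycolysis other than phosphoglycerate kinase 1 (PGK1): HK2, GPI, PFKP, PFKL, ALDOA, TPI1, PGAM1, ENO1, ENO2 and LDHA. They were taken by gene symbol from GENCODE 29, and all 10 were among the 35075 genes of the count table and among the 16787 genes that passed the low-count filter. Their RNA was measured in HEK293, a human line from embryonic kidney with some neuronal features, in 4 groups of 4 libraries each. Every group overexpressed a protein: green fluorescent protein as control (GFP), the wild-type form of RNF43 (WT), or an RNF43 form changed by a frameshift, either R117fs or G659fs. The RNF43 protein is a ubiquitin ligase of the cell membrane and dampens Wnt signalling. The vector, the promoter, the mode of delivery, the time of harvest and the origin of the replicates are not given in the sources used here, so p-values measure only the spread between these libraries, which may be technical.

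Glycolysis splits glucose into pyruvate in the cytosol, and lactate dehydrogenase can then turn pyruvate into lactate and so restore the NAD+ that the pathway needs. Hexokinase and phosphofructokinase carry its early, regulated steps, and the enzymes from aldolase onward are among the most abundant proteins of dividing cells. Several steps are shared between isozymes from separate genes, which differ in tissue and in control, and many of these genes can be induced by the transcription factors HIF-1 and MYC. RNA levels do not give enzyme amounts or flux.

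The promoters of these genes were compared because most of the genes moved together while ENO2 moved the other way. The RefSeq table (GRCh38.p14) held a window of 300 bases, 250 before and 50 after a start site, for all 10 genes, and the window nearest to the start of each gene's main transcript was taken. The distance was at most 450 bases, except for PGAM1, where it was 1658. Shown are the 250 bases before the start of both enolases, which moved in opposite directions, of LDHA, and of HK2, which had the most copies of the first motif. Each sequence is on the strand of its gene, from chr2:74833877-74834126 (plus strand), chr11:18396101-18396350 (plus), chr1:8878687-8878936 (minus) and chr12:6914330-6914579 (plus). Capitals mark ACGTG, a form of the core of the hypoxia response element (CACGT on the other strand). They also mark GGGCGG, the GC box that SP1 can bind (CCGCCC on the other strand). GCGTG, another form of the hypoxia core, was not searched and is left unmarked.
HK2: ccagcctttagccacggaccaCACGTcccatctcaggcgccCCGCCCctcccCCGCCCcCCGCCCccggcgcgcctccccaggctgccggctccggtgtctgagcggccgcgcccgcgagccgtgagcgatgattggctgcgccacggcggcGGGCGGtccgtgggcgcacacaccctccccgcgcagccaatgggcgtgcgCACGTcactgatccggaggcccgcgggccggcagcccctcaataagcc
LDHA: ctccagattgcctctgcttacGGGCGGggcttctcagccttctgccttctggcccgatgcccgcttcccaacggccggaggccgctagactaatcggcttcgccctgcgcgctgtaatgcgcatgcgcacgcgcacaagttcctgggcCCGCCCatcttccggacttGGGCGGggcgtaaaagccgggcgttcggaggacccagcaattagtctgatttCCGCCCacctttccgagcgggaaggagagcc
ENO1: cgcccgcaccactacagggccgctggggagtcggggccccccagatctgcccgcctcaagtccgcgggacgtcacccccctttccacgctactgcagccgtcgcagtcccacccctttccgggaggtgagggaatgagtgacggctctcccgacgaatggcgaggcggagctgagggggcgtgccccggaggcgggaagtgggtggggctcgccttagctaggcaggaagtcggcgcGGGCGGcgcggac
ENO2: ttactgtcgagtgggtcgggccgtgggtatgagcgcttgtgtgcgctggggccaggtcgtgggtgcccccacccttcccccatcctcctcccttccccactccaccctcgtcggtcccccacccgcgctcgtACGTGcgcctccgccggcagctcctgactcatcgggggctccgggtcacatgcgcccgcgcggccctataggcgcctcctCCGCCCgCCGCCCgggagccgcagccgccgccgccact

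ACGTG was found in 4 of the 10 windows (HK2, GPI, ALDOA and ENO2), against 21.4% of the 35116 RefSeq windows of the same length. HK2 had 2 copies, which began 229 and 48 bases before the start, and ENO2 had 1, which began 118 bases before it. The MYC E-box CACGTG, which overlaps ACGTG, was in none of the 10 windows and in 7.26% of all windows. GGGCGG was in 8 of the 10, all but GPI and ALDOA, against 45.0% of all. The windows held 53.3% to 78.3% G and C, and the mean of all windows was 57.5%. ENO2, whose RNA fell, carried both ACGTG and GGGCGG, as did HK2, whose RNA rose with WT and R117fs. GCGTG was not searched, so a window without ACGTG may still hold that form of the hypoxia core. A link between motifs and the direction of change was not tested. A match describes letters in these windows and shows no binding.

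The libraries held 20364357 to 46779570 estimated counts, and the smallest count of any of the 10 genes in any library was 633 (ENO2). RNF43 averaged 31.4 CPM (counts scaled to a library total of 1000000) in GFP cells, 53350 in WT, 68440 in R117fs and 39390 in G659fs, as labelled. Of 8 markers listed for HEK293, ENO2 among them, 7 exceeded 1 TPM (a level per transcript length, scaled to the same total) in every library, with LHX1 as the exception, and the defining markers PTPRC, HBB, VIL1 and KRT20 of blood and gut epithelium stayed at or below 0.358 TPM. The intestinal factor CDX2 was at 19.0 to 27.3 TPM over all libraries. Of 5 fibroblast markers, COL1A1 was at 13 to 30.1 TPM, COL1A2 at or below 0.145 TPM, and DCN, LUM and PDGFRA reached at most 3.32, 2.1 and 1.35 TPM. Their sum ranged over 15.2–20.3 TPM among the WT libraries, 22–23.9 TPM among GFP, 16.9–28.7 TPM among R117fs and 24.1–32.7 TPM among G659fs, and its part in the results was not tested. The part of these markers in the results was not tested. R117fs replicate 4 stood apart. Over all genes, its log2 CPM deviated from its group with an SD of 0.579, against at most 0.409 in any other library, and the deviation was higher in genes rich in G and C (Spearman 0.79, a correlation across genes, which are no independent replicates). Calls of the 10 genes that changed when it was left out are given with and without it.

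**Figure D1:**
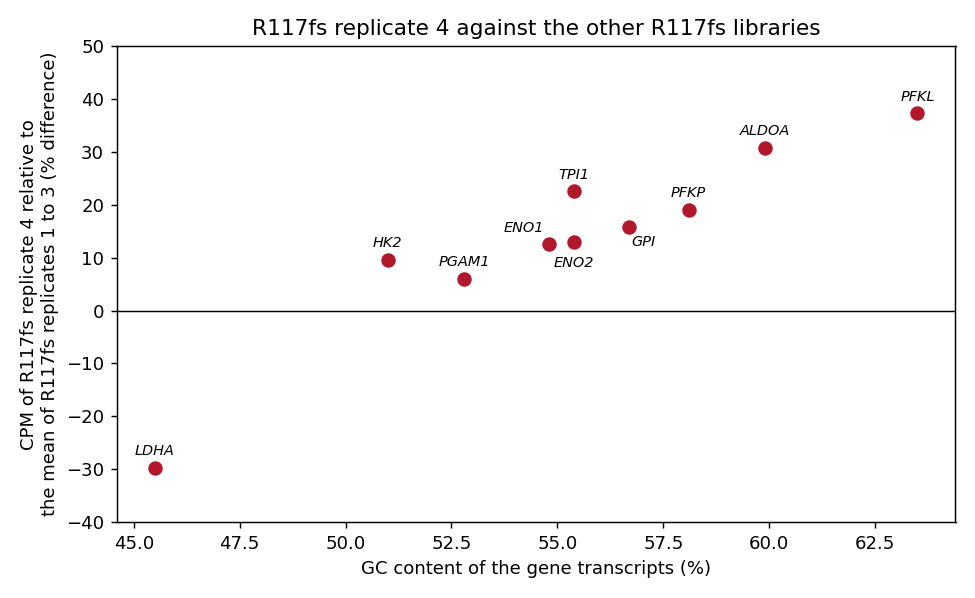
For the 10 genes, the CPM of R117fs replicate 4 as a percent difference from the mean of R117fs replicates 1 to 3 (vertical axis), against the GC content of the gene's transcripts in percent (horizontal axis). LDHA, with the lowest GC content, lies 29.7% below the other libraries, and PFKL, with the highest, 37.3% above.

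Among the 10 genes this library followed GC content closely. It was the highest R117fs library for 9 of them and the lowest for LDHA, as the plot of its difference from the other R117fs libraries shows. PFKL (GC content 63.5%) was at 210.0 CPM there, against a mean of 152.9 in replicates 1 to 3. LDHA (45.5%) was at 263.5 CPM, against a mean of 374.7. Means and SDs of R117fs for these genes carry that library.

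In GFP cells the levels per length spanned a wide range. ENO1, the general enolase, was the most abundant at 1041 ± 64.8 TPM (SD, n = 4 for all such values), followed by ALDOA at 666.9 ± 61.9 TPM and TPI1 at 593.7 ± 15.2 TPM, and these neighbours lay apart by more than 1 SD. LDHA (346.1 ± 18.2 TPM), PGAM1 (267.1 ± 9.31 TPM) and GPI (206.2 ± 9.75 TPM) formed the middle. PFKL (77.6 ± 5.78 TPM) and PFKP (73.2 ± 3.39 TPM) did not differ beyond their spread. The neuronal enolase ENO2 followed at 43.4 ± 3.84 TPM, and HK2 was the lowest at 17.3 ± 0.65 TPM.

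Against GFP, the WT construct was set beside both frameshift constructs to see how the pathway's RNA differed with each. These comparisons share the 4 GFP libraries. With WT, 7 of the 10 genes rose and 1, ENO2, fell (edgeR quasi-likelihood test, Benjamini-Hochberg adjusted p under 0.05 over 16787 genes), where 9.85% of all tested genes rose, 11.6% fell and 21.5% did either. With R117fs, 5 rose and ENO2 fell, where 7.04% of all genes rose, 8.57% fell and 15.6% did either. With G659fs, 7 rose and ENO2 fell, against 11.6%, 13.8% and 25.4% of all genes. The median log2 fold change of the 10 genes was 0.33 with WT, 0.21 with R117fs and 0.28 with G659fs, while that of all tested genes was 0.00, -0.01 and 0.00. Without R117fs replicate 4 the R117fs median of the 10 genes was 0.18. In bulk RNA, fewer cells that express a gene and less RNA per cell cannot be told apart.

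**Figure D2:**
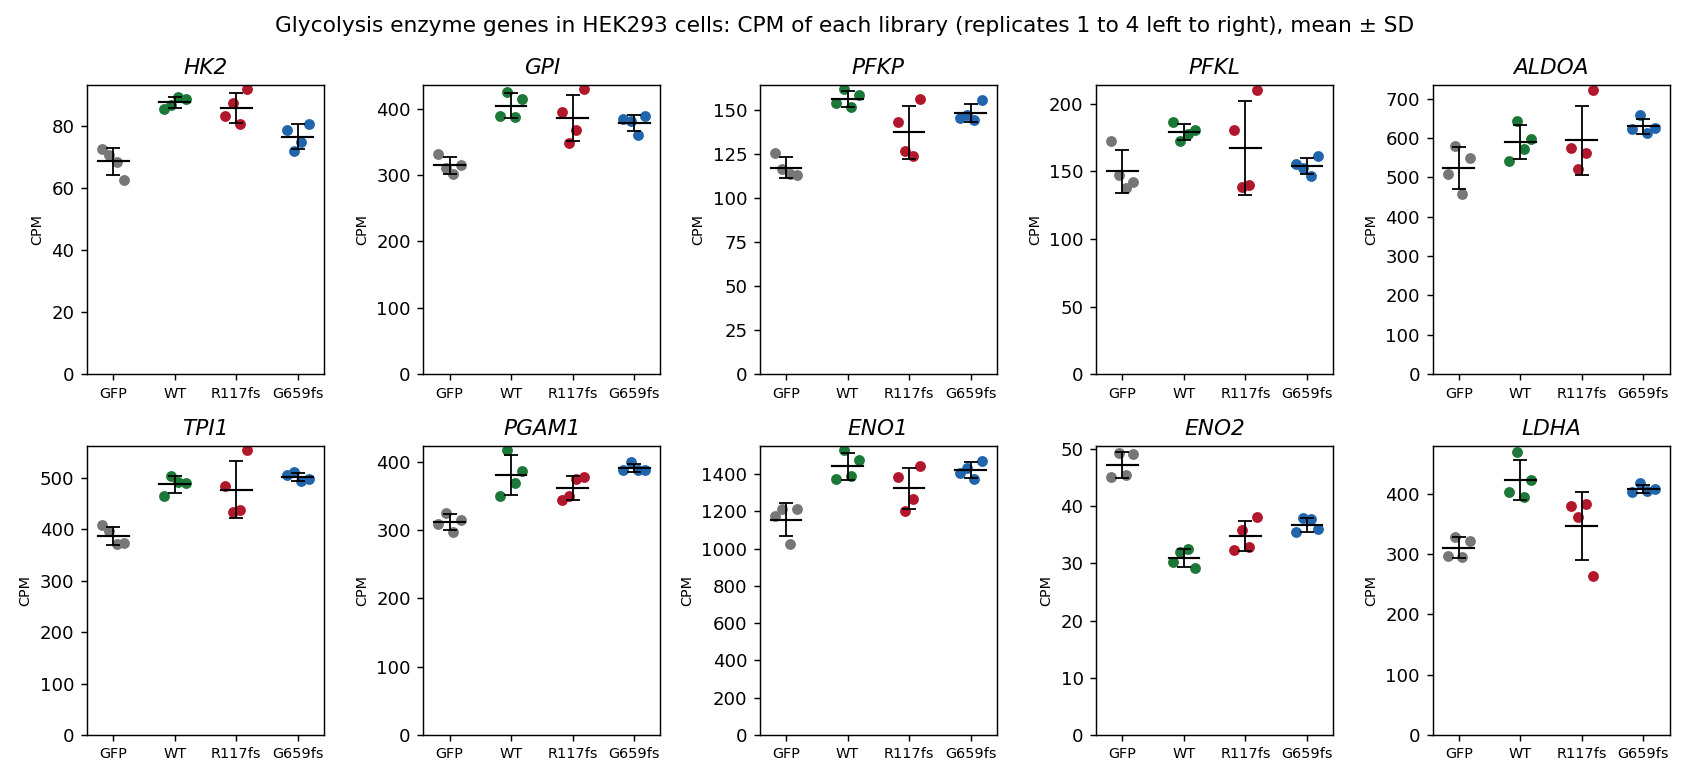
CPM of each of the 10 genes (1 panel per gene, vertical axis from 0) in the 4 GFP, WT, R117fs and G659fs libraries, with points for the libraries and a bar with whiskers for mean ± SD. ENO2 is the only panel in which all 12 RNF43 libraries lie below all GFP libraries, and R117fs has the largest SD in 9 of the 10 panels.

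The rise was modest in size. Fold changes among the genes that rose lay between 1.16 (PGAM1 with R117fs) and 1.36 (LDHA with WT). All 4 libraries of the construct lay above all 4 GFP libraries in each of the 19 rises except PFKP with R117fs. That was 7 of 7 with WT, 4 of 5 with R117fs and 7 of 7 with G659fs, where 91.7%, 76.7% and 94.7% of all genes called higher did so. In either direction, 8, 5 and 8 of the 10 did not overlap with GFP, against 33.8%, 16.5% and 37.9% of all tested genes. In the fit of all 16 libraries, PFKL was the only one of the 10 that passed the threshold with no construct. GPI, PFKP, TPI1 and PGAM1 rose and ENO2 fell with every construct.

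HK2 encodes hexokinase 2, the inducible isozyme that traps glucose in the cell as glucose 6-phosphate (ENSG00000159399; GRCh38 chromosome 2, 74833981 to 74893359, plus strand). Its level was 72.4, 70.6, 68.4 and 62.6 CPM in the GFP libraries and 85.3, 86.6, 89.3 and 88.7 CPM with WT. It was 83.1, 87.1, 80.6 and 91.6 CPM with R117fs and 78.6, 71.7, 74.8 and 80.6 CPM with G659fs. WT and R117fs libraries all lay above GFP, while a G659fs library lay inside the GFP range. The log2 fold change was 0.35 ± 0.06 (SE) with WT (adjusted p = 0.000737), 0.32 ± 0.06 with R117fs (0.00243) and 0.16 ± 0.06 with G659fs (0.0733). Without R117fs replicate 4 in the fit the G659fs value was still 0.16 but its adjusted p was 0.0165.

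GPI, glucose-6-phosphate isomerase (ENSG00000105220; chromosome 19, 34359480 to 34402413, plus strand), makes fructose 6-phosphate. It averaged 314.8 ± 13.1 CPM in GFP, 404.5 ± 19.0 in WT, 385.9 ± 34.9 in R117fs and 378.8 ± 12.7 in G659fs. No construct library reached down to the GFP range. The log2 fold changes were 0.36, 0.29 and 0.27 (SE 0.06 each) with WT, R117fs and G659fs (adjusted p = 0.000755, 0.00533 and 0.0056).

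Phosphofructokinase, the committed step of the pathway, is built from subunits of 3 genes. PFKP, the platelet subunit (ENSG00000067057; chromosome 10, 3066333 to 3137712, plus strand), was at 125.9, 116.5, 113.6 and 113.3 CPM in GFP and at 154.3, 161.9, 151.7 and 158.7 CPM with WT. With R117fs it was at 143.2, 126.7, 124.1 and 156.3 CPM, and with G659fs at 145.9, 147.1, 144.5 and 156.0 CPM. WT and G659fs stood clear of GFP, and R117fs replicate 3 lay below the highest GFP library. The log2 fold changes were 0.42 ± 0.07 (adjusted p = 0.000458), 0.23 ± 0.07 (0.0327) and 0.34 ± 0.07 (0.00188), and without R117fs replicate 4 the R117fs value was 0.17 (0.0325). The R117fs call was lost without GFP replicate 2, 3 or 4 or R117fs replicate 1 (adjusted p = 0.0528 to 0.0882) and with the effective length offset (0.154).

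PFKL, the liver subunit (ENSG00000141959; chromosome 21, 44300051 to 44327376, plus strand), had the largest coefficient of variation of the 10 genes in GFP (10.4%) and R117fs (20.8%), but not in WT (3.43%) or G659fs (4.01%). It averaged 149.9 ± 15.6 CPM in GFP, 179.2 ± 6.14 in WT, 167.2 ± 34.7 in R117fs and 154.0 ± 6.18 in G659fs. GFP replicate 1 (172.6 CPM) and R117fs replicates 1 and 4 (180.9 and 210.0 CPM) were the high ones. The log2 fold changes of 0.26 ± 0.11 with WT (adjusted p = 0.0971), 0.16 ± 0.11 with R117fs (0.349) and 0.04 ± 0.11 with G659fs (0.825) did not pass. The WT value passed without R117fs replicate 4 (0.26, adjusted p = 0.0178) and without GFP replicate 1 (0.32, 0.0461). It also passed with each library's trend on GC content removed (0.29, 0.000763). In a fit of the WT and GFP libraries alone it passed as well (0.26, 0.00573). PFKM, the muscle subunit, which is not among the 10, rose with WT (log2 fold change 0.24, adjusted p = 0.00933) and G659fs (0.18, 0.0375) and was at 0.16 with R117fs (0.0928).

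ALDOA encodes aldolase A, which splits fructose 1,6-bisphosphate (ENSG00000149925; chromosome 16, 30064164 to 30070457, plus strand). It averaged 523.8 ± 53 CPM in GFP, 589.3 ± 43.0 in WT, 594.3 ± 87.8 in R117fs and 629.4 ± 19.3 in G659fs. The 4 G659fs libraries, at 613.3 to 657.5 CPM, lay above all GFP libraries, at 457.9 to 579.7 CPM, while the other groups overlapped with GFP. It rose with G659fs (log2 fold change 0.27 ± 0.09, adjusted p = 0.0388), a call lost when any of 7 of the 8 libraries of that comparison was left out (adjusted p up to 0.12). The values were 0.17 ± 0.09 with WT (0.195) and 0.18 ± 0.09 with R117fs (0.187), and without R117fs replicate 4 they were 0.17 (0.0435) and 0.08 (0.477).

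TPI1, triose-phosphate isomerase (ENSG00000111669; chromosome 12, 6867119 to 6870948, plus strand), joins both products of aldolase into the same route. It was at 407.8, 396.7, 370.9 and 372.7 CPM in GFP and at 464.3, 503.8, 492.2 and 489.7 CPM with WT. With R117fs it was at 484.8, 434.2, 436.9 and 553.8 CPM, and with G659fs at 506.2, 511.8, 495.0 and 497.9 CPM. All 12 construct libraries were above all GFP libraries. The log2 fold changes were 0.33, 0.30 and 0.38 (SE 0.07 each; adjusted p = 0.00233, 0.00672 and 0.000754 in the same order).

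PGAM1, phosphoglycerate mutase 1 (ENSG00000171314; chromosome 10, 97426160 to 97433441, plus strand), moves the phosphate of 3-phosphoglycerate. It averaged 311.7 ± 11.7 CPM in GFP, 381.2 ± 28.9 in WT, 362.0 ± 16.9 in R117fs and 391.2 ± 6.02 in G659fs, with no overlap between any construct and GFP. The log2 fold changes were 0.29 ± 0.06 (adjusted p = 0.00211), 0.22 ± 0.06 (0.0198) and 0.33 ± 0.06 (0.000699). The R117fs call was lost without GFP replicate 3 (0.0622) and with the effective length offset (0.0501).

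The enolases, which make phosphoenolpyruvate, moved in opposite directions. ENO1 (ENSG00000074800; chromosome 1, 8861000 to 8879250, minus strand) was at 1173, 1210, 1026 and 1210 CPM in GFP and at 1375, 1527, 1391 and 1476 CPM with WT. It was at 1384, 1200, 1268 and 1444 CPM with R117fs and at 1406, 1432, 1373 and 1472 CPM with G659fs. GFP replicate 3 was low and R117fs replicate 2 lay inside the GFP range, while WT and G659fs stood above it. ENO1 rose with WT (log2 fold change 0.32 ± 0.07, adjusted p = 0.00246) and G659fs (0.30 ± 0.07, 0.00344), and its value with R117fs was 0.20 ± 0.07 (0.0525). That value passed when WT replicate 1 or 2 or R117fs replicate 2 or 3 was left out (adjusted p = 0.0187 to 0.0495). Without R117fs replicate 4 it was 0.15 and did not pass (0.0793).

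ENO2 encodes the enolase of neurons and neuroendocrine cells (ENSG00000111674; chromosome 12, 6913745 to 6923698, plus strand). It was at 45.0, 49.4, 45.5 and 49.1 CPM in GFP and at 30.2, 32.0, 32.5 and 29.2 CPM with WT. It was at 32.4, 35.8, 32.8 and 38.1 CPM with R117fs and at 35.5, 37.9, 37.7 and 35.9 CPM with G659fs. The highest construct library, R117fs replicate 4, remained below the lowest GFP library. ENO2 fell by 0.61 ± 0.07 on the log2 scale with WT (adjusted p = 1.15e-05), by 0.44 ± 0.07 with R117fs (0.000318) and by 0.36 ± 0.07 with G659fs (0.000772). This was the change of largest size among the 10 genes with WT and with R117fs, while LDHA and TPI1 exceeded it with G659fs. ENO3, the muscle enolase, was low at 8.35 CPM in GFP and also fell with WT (by 0.72 on the log2 scale, adjusted p = 0.000385) and G659fs (by 0.60, 0.00123).

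LDHA, the lactate dehydrogenase subunit that favours lactate formation (ENSG00000134333; chromosome 11, 18394388 to 18408425, plus strand), was at 296.4, 328.8, 294.2 and 321.3 CPM in GFP and at 403.1, 469.1, 394.1 and 421.9 CPM with WT. With R117fs it was at 379.6, 361.6, 382.9 and 263.5 CPM, and with G659fs at 402.4, 416.8, 403.5 and 407.5 CPM. Of the R117fs libraries, 3 lay above all GFP libraries and replicate 4 lay below them all. LDHA rose with WT (log2 fold change 0.44 ± 0.09, adjusted p = 0.00252) and G659fs (0.39 ± 0.09, 0.00497). With R117fs the value was 0.16 ± 0.09 (0.255) over all libraries and 0.27 without replicate 4 (0.00179). With all libraries kept and each library's trend on GC content removed it was 0.21 (0.0165). The call for R117fs thus depended on that library and on the treatment of GC content.

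**Figure D3:**
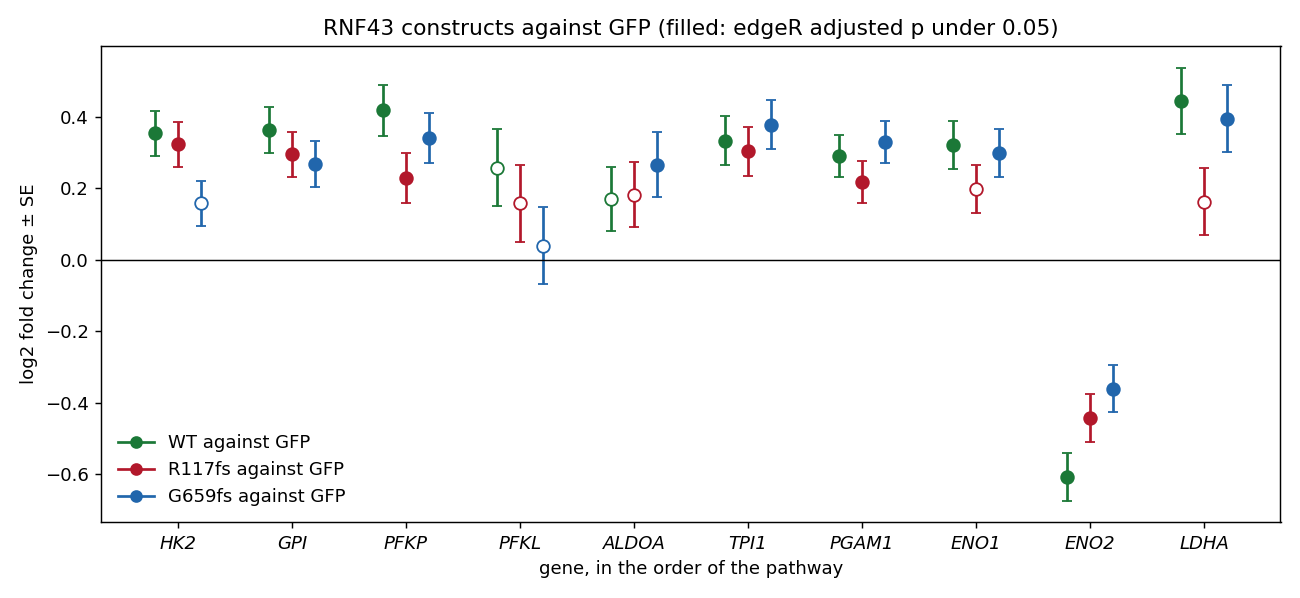
Log2 fold change against GFP ± SE (vertical axis) of the 10 genes in pathway order (horizontal axis) with WT, R117fs and G659fs. Filled points passed an edgeR adjusted p under 0.05; every value but those of ENO2 is above 0, and PFKL has no filled point.

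These fold changes rest on CPM after TMM scaling, which puts the median gene near 0. The deposited TPM values carry no such scaling. RNF43 itself averaged 21800 to 28850 TPM in the construct groups, and its part in the TPM ratios below was not tested. On TPM the median tested gene had a ratio of 0.906 for WT over GFP, 0.942 for R117fs and 0.925 for G659fs, which are log2 shifts of -0.14, -0.09 and -0.11. The TPM ratio of LDHA was 1.25 with WT, or 1.38 relative to that median gene, and that of ENO2 was 0.547, or 0.604. Relative to the median gene all 9 genes other than ENO2 had TPM ratios above 1 with every construct, from 1.03 (PFKL with G659fs) to 1.38. Without that reference PFKL with G659fs turned to a ratio of 0.954.

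The constructs were then compared with each other, which asks how the frameshift forms differ from WT. With R117fs against WT, none of the 10 genes passed the edgeR threshold, where 8.11% of all genes did, 4.5% higher and 3.62% lower. At an unadjusted p under 0.05, 3 did, and 1 passed by DESeq2. The shares of all genes at those settings are not given here. LDHA had the largest difference, -0.28 ± 0.09 on the log2 scale (adjusted p = 0.0671), with all R117fs libraries below all WT libraries, and it was the only 1 of the 10 without overlap, against 15.3% of all genes. When each library's trend on GC content was removed, 5 of the 10 were lower with R117fs: PFKP (-0.27, adjusted p = 0.000279), PFKL (-0.26, 0.00643), LDHA (-0.22, 0.0185), GPI (-0.13, 0.0306) and ENO1 (-0.16, 0.0354). Over all genes, too, that setting called more than the fit without it, so 8.11% is not its background. Its own share of all genes is not given here, so the 5 are no result about the 10 genes. Over the alternatives the count of all genes ranged from 154 to 3680, with 1362 in the fit without it. Without R117fs replicate 4 the GC setting called 2 of the 10, PFKP (-0.25, 0.00131) and PFKL (-0.25, 0.0213). With no GC step, the LDHA difference without R117fs replicate 4 was -0.17 (0.0595), and PFKP then passed at -0.25 (0.00647). LDHA passed by DESeq2 (-0.28, adjusted p = 0.0424) and without R117fs replicate 1 (-0.32, 0.042).

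With G659fs against WT, 1 of the 10, ENO2, differed, where 5.68% of all genes did, 2.32% higher and 3.35% lower. ENO2 was higher with G659fs by 0.25 ± 0.07 (adjusted p = 0.0375), all 4 G659fs libraries above all 4 WT libraries, so the fall was smaller with G659fs than with WT. That call was lost when WT replicate 1, 3 or 4 or G659fs replicate 2, 3 or 4 was left out (adjusted p = 0.0684 to 0.131) and with the effective length offset (0.139). HK2 was at -0.20 ± 0.06 (adjusted p = 0.07), with all G659fs libraries below all WT libraries, and passed at -0.20 without R117fs replicate 4 (0.00896). PFKL also showed no overlap, at -0.22 ± 0.11 (0.237). These 3 of the 10 compare with 26.8% of all genes without overlap. With the GC trend removed, HK2 (-0.18, adjusted p = 0.0115), PFKL (-0.31, 0.00216) and GPI (-0.12, 0.0433) passed along with ENO2. Over the alternatives the count of all genes ranged from 100 to 4660, so 5.68% need not be the share at that setting. The share there is not given, so these added calls are no result about the 10 genes.

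With G659fs against R117fs, none passed by edgeR, where 14.4% of all genes did, 6.35% higher and 8.02% lower, while 2 had an unadjusted p under 0.05 and 1, HK2, passed by DESeq2 (-0.17, adjusted p = 0.026). LDHA was at 0.23 ± 0.09 (adjusted p = 0.101), HK2 at -0.16 ± 0.06 (0.0855) and PGAM1 at 0.11 ± 0.06 (0.217), each with no overlap between the groups, against 18.1% of all genes. With the GC trend removed, 4 passed: HK2 (-0.16, adjusted p = 0.0192), PFKP (0.16, 0.00665), PGAM1 (0.13, 0.0477) and LDHA (0.20, 0.0181). When R117fs replicate 4 was also left out, 2 passed, PFKP (0.14, 0.0205) and TPI1 (0.13, 0.0293). Over the alternatives the count of all genes ranged from 796 to 5516, so 14.4% need not be the share at these other settings. With no GC step and without R117fs replicate 4, PFKP (0.17, adjusted p = 0.0233) and TPI1 (0.15, 0.0296) were higher with G659fs. A p that missed the threshold does not show that constructs acted alike.

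The share of each isozyme in its step was computed from TPM. ENO1 made up 96.0% ± 0.23 of the ENO1 plus ENO2 level in GFP cells (SD, n = 4) and 98.0% ± 0.15 with WT. The share was 97.5% ± 0.33 with R117fs and 97.7% ± 0.16 with G659fs. All 12 construct libraries, at 97.2% to 98.2%, lay above all GFP libraries, at 95.7% to 96.2%. In an exact two-sided permutation test of 4 against 4 libraries, which cannot give a p below 0.0286, each of these 3 comparisons had that p. Over the 36 isozyme tests 11 had it, and none passed after Benjamini-Hochberg adjustment (exact permutation test, adjusted p = 0.0935).

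**Figure D4:**
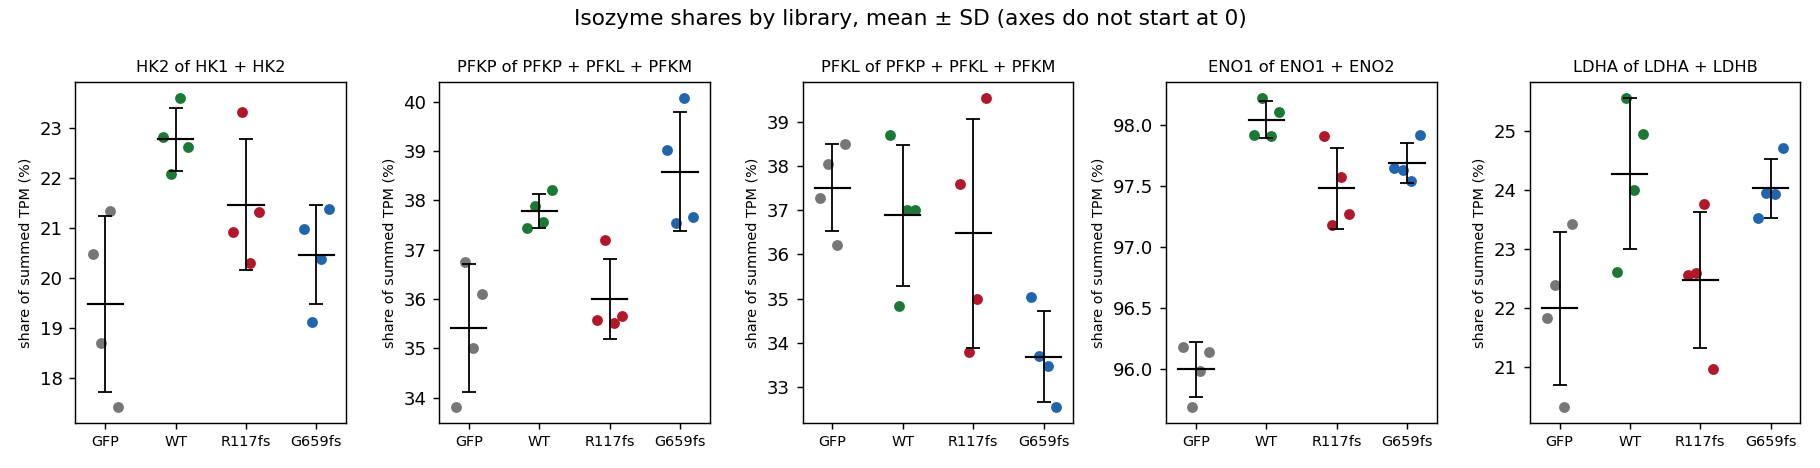
Share of an isozyme in the summed TPM of its step, in percent (vertical axes, which do not start at 0), in the 4 libraries of each group, with points for libraries and bars with whiskers for mean ± SD. The ENO1 share lies above all GFP libraries in all 12 construct libraries, and the PFKL share is lowest in G659fs.

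HK2 was the minor hexokinase, with 19.5% ± 1.77 of HK1 plus HK2 in GFP and 22.8% ± 0.63 with WT, without overlap. HK1, the housekeeping hexokinase, averaged 175.4 CPM in GFP and passed the test with no construct (log2 fold changes 0.04, 0.12 and 0.02 with WT, R117fs and G659fs, adjusted p = 0.737, 0.224 and 0.892). PFKP held 35.4% ± 1.30 of the phosphofructokinase TPM in GFP, 37.8% ± 0.34 with WT, 36.0% ± 0.81 with R117fs and 38.6% ± 1.21 with G659fs, and PFKL held 37.5% ± 0.99 in GFP and 33.7% ± 1.03 with G659fs. WT and G659fs lay above GFP for PFKP, and G659fs below GFP for PFKL, with no overlap. LDHA held 22.0% ± 1.30 of LDHA plus LDHB in GFP and 24.0% ± 0.50 with G659fs, so LDHB was the major subunit in every group. LDHB rose with WT (log2 fold change 0.26, adjusted p = 0.0258). ALDOA held 99.3% to 99.4% of ALDOA plus ALDOC on average in every group, and ALDOC, at 3.81 CPM in GFP, rose with G659fs (0.60, adjusted p = 0.00945).

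Within each gene the main transcript was that with the highest mean share of counts. It carried nearly all counts of PGAM1 (PGAM1-201, 99.5% in GFP), ENO1 (ENO1-201, 97.7%) and PFKP (PFKP-203, 96.6%). Counts were divided more evenly for ALDOA, where ALDOA-206 held 33.6% and ALDOA-218 31.2%, for LDHA (LDHA-203, 56.4%) and for GPI (GPI-208, 59.1%). ENO2-201 held 62.5% ± 3.08 in GFP, 62.1% ± 13.5 with WT, 53.9% ± 8.36 with R117fs and 57.0% ± 7.56 with G659fs, and all construct groups overlapped with GFP. The PFKP-203 share was 96.6% ± 0.76 in GFP, 98.5% ± 0.40 with WT, 98.0% ± 0.36 with R117fs and 97.9% ± 0.20 with G659fs, with no overlap between any construct and GFP. Of 30 such tests 4 had the smallest p possible and none passed (exact permutation test, smallest adjusted p = 0.214). Pseudogenes of these genes held at most 1.15% of the summed counts (LDHA), and adding them to the parent gene changed no call.

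The genes whose pattern over the 16 libraries was most like each member were found by the root mean square difference of log2 CPM, each gene centred on its mean. GPI was closest to PHB (0.04) and TPI1 also to PHB (0.05), PGAM1 to EIF5A (0.04), PFKP to CMTM7 (0.04) and ENO1 to KIAA0930 (0.04). LDHA was closest to GPR160 (0.07), HK2 to HAX1, ALDOA to SLC25A10 and PFKL to HS1BP3 (0.05 to 0.06 each). ENO2 was closest to TRAPPC10 (0.09), which fell by 0.48, 0.25 and 0.29 with WT, R117fs and G659fs (adjusted p = 6.01e-05, 0.0117 and 0.00269). The median distance to all genes was 0.25 to 0.31. Among themselves, GPI was the nearest of the 10 to PFKP, TPI1, ENO1, HK2 and PFKL, and ENO2 had no near one (ALDOA, 0.32).

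The rest of the glycolytic enzymes were read from a list of 18 genes, 13 of them tested, of which 4 rose and 2 fell with WT, 1 rose and 1 fell with R117fs, and 4 rose and 3 fell with G659fs. Of all tested genes 9.85%, 7.04% and 11.6% rose with WT, R117fs and G659fs, and 11.6%, 8.57% and 13.8% fell. These shares are the background of each list below as well. No list was tested as a set, and counts near these shares are no result about a list. GAPDH, which makes the pathway's NADH, rose with all constructs by 0.32, 0.27 and 0.30 on the log2 scale (adjusted p = 0.0028, 0.0121 and 0.00398 with WT, R117fs and G659fs). PKM, which makes pyruvate, rose with WT (0.25, adjusted p = 0.013) and G659fs (0.32, 0.00238) and was at 0.10 with R117fs (0.348). G659fs was higher than R117fs for PKM by 0.22 (0.0364). LDHC fell with G659fs (by 0.66, 0.000384). PGK1 went the other way on counts, from 586.3 CPM in GFP to 321.4, 273.8 and 326.4 CPM, but its TPM rose from 218.9 to 550.9, 469.2 and 569.8. The estimated PGK1 counts thus lay on shorter transcripts with the constructs than in GFP, and the direction differs between counts and TPM.

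Of 10 genes of glucose and lactate transport, 2 rose with WT, none changed with R117fs and 2 rose with G659fs, beside the shares of all genes given above. SLC16A1, which carries lactate and pyruvate, rose from 147.9 CPM in GFP to 179.3 with WT (log2 fold change 0.28, adjusted p = 0.0265) and 184.5 with G659fs (0.32, 0.0106), and was at 149.5 with R117fs (0.02, 0.92). G659fs was also higher than R117fs (0.30, 0.0238). SLC2A10 rose with WT (0.33, 0.0179) and SLC2A12 with G659fs (0.31, 0.016).

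Of 13 tested genes that control the flux, 3 rose and 3 fell with WT and with G659fs, and 1 fell with R117fs. PDK4, a kinase that shuts off pyruvate dehydrogenase, fell with every construct, from 7.28 CPM in GFP to 4.44, 5.22 and 4.75 (by 0.71, 0.47 and 0.62 on the log2 scale, adjusted p = 0.00103, 0.0238 and 0.00232). Its opponents, the phosphatases, split: PDP1 rose with WT (0.39, 0.0118) and G659fs (0.41, 0.00766), and PDP2 fell with WT (by 0.47, 0.000368) and G659fs (by 0.29, 0.00981). PFKFB3, which makes an activator of phosphofructokinase and was named after its values were seen, rose from 84.9 to 101.4 CPM with WT (0.26, 0.0155) and to 109.5 CPM with G659fs (0.37, 0.0012).

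Of 7 genes for the entry of pyruvate into mitochondria, 1 rose with WT (PDHA1, 0.22, adjusted p = 0.0111) and 2 with G659fs (PDHA1, 0.16, 0.047 and PDHB, 0.26, 0.0138), while MPC2, part of the pyruvate carrier, fell with R117fs (by 0.17, 0.044). Of 14 genes of the pentose phosphate pathway and other branches, 6, 2 and 4 rose with WT, R117fs and G659fs and none fell. PGM1, which links glycolysis to glycogen, rose with all constructs, from 95.4 CPM in GFP to 119.0 with WT, 123.4 with R117fs and 116.5 with G659fs (log2 fold changes 0.32, 0.37 and 0.29, adjusted p = 0.000217, 9.47e-05 and 0.000404). RPIA, an isomerase of the pentose phosphate pathway, rose with WT (0.29, 0.0147) and G659fs (0.38, 0.00227). Of 4 tested genes of gluconeogenesis, 3, 1 and 3 rose, and PCK2, the mitochondrial phosphoenolpyruvate carboxykinase, rose with all (0.42, 0.40 and 0.30, adjusted p = 0.00295, 0.00672 and 0.022).

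Of 12 transcription factors known to act on glycolytic genes, 1 rose and 1 fell with WT and with R117fs, and 2 rose and 1 fell with G659fs. These counts, too, stand beside the shares of all genes given above. MYC rose with all, from 167.9 CPM to 236.4, 212.5 and 248.1 (log2 fold changes 0.50, 0.34 and 0.56, adjusted p = 0.00137, 0.0219 and 0.000399). HIF1A, which oxygen controls mainly through its protein, fell from 102.0 CPM to 79.8 with R117fs (by 0.35, 0.0125) and to 85.9 with G659fs (by 0.25, 0.0464), and was at 89.2 CPM with WT (-0.19, 0.126). EPAS1, which encodes another HIF alpha subunit and was named after its values were seen, rose from 28.2 to 35.4 CPM with G659fs (0.33, 0.0223) and was at 26.7 CPM with WT (-0.07, 0.648) and 24.8 CPM with R117fs (-0.19, 0.223). It was higher with G659fs than with WT (0.41, 0.0276) and R117fs (0.52, 0.00256). Of 19 tested hypoxia-inducible genes that are not glycolytic enzymes, 3 rose and 1 fell with WT and with G659fs, and 1 fell with R117fs; the median log2 fold change was 0.07 with WT, 0.06 with G659fs and -0.02 with R117fs. NDRG1 rose with WT (0.53, adjusted p = 0.000843) and G659fs (0.55, 0.000457), while KDM3A fell with all constructs (by 0.50, 0.41 and 0.58, adjusted p = 0.000658, 0.00467 and 0.000146). Against GFP, the 10 glycolytic genes had higher medians than this list with each construct, and the difference was not tested. Of 13 mitochondrially encoded genes, read as a sign of RNA quality, 3, 1 and 7 rose and none fell, and their part in the results was not tested.

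**Figure D5:**
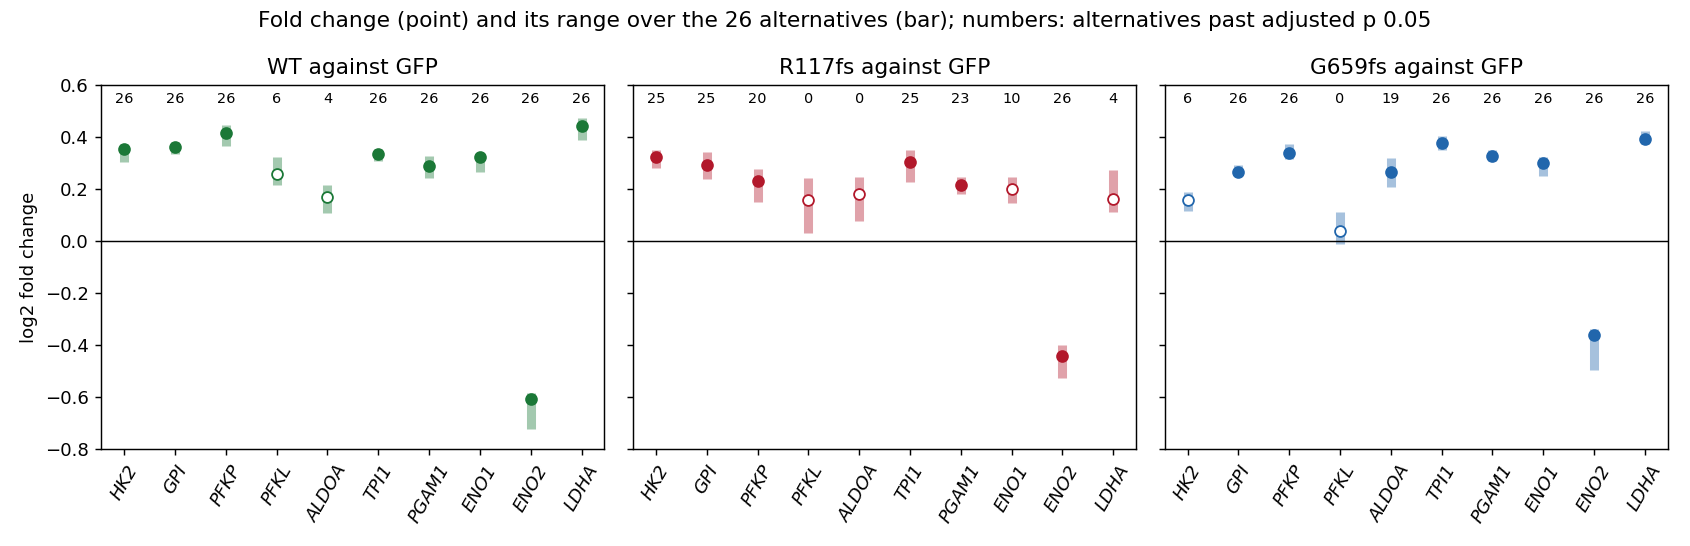
Log2 fold change against GFP of the 10 genes (points) and its range over 26 other ways of processing (bars), with WT, R117fs and G659fs in 1 panel each. The number above a gene is how many of the 26 passed an adjusted p under 0.05: 26 for 8 genes with WT, and between 0 and 26 with R117fs, where ENO2 alone passed in all.

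How firmly each call stood differed by construct, as the plot of fold changes over the alternatives shows. With WT, the 7 rises and the fall of ENO2 passed in all 26 alternatives. PFKL and ALDOA, not called with WT, passed in 6 and 4 of them, and HK2, not called with G659fs, passed in 6. With G659fs the same was true of 7 genes, and ALDOA passed in 19. With R117fs, ENO2 passed in 26, HK2, GPI and TPI1 in 25, PGAM1 in 23 and PFKP in 20, while ENO1 passed in 10 and LDHA in 4. Without R117fs replicate 4, the log2 fold changes with R117fs were 0.29 (HK2), 0.24 (GPI), 0.225 (TPI1), 0.19 (PGAM1) and -0.485 (ENO2). Each of these still passed. In a fit of the 8 R117fs and GFP libraries alone, ENO2 was the only 1 of the 10 that passed. No called gene changed direction in any of the alternatives.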

How the data were processed

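Per the submitters' processing notes, RNA sequencing reads were quantified with kallisto 0.45.1 on GRCh38, and per the file headers each deposited file gives an estimated count and a TPM per transcript. The annotation release, strand setting and read length are not given in the sources used here. Of 178136 transcripts, 162453 (91.2%) matched GENCODE 29 by identifier; the others held 1.904% to 2.216% of counts and were left out. Estimated counts were summed per gene and rounded. Reads of paralogs, pseudogenes and overlapping or antisense genes are divided by estimation.

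All 16 libraries entered 1 fit in edgeR 4.0.16 (R 4.3.3): TMM, filterByExpr, robust dispersions, glmQLFit and glmQLFTest, with 6 contrasts and Benjamini-Hochberg adjustment over 16787 genes. An adjusted p given without a tool's name comes from it. The common biological coefficient of variation was 0.103. CPM is after TMM, and the SE is the fold change over the root of F. Isozyme shares used the deposited TPM and transcript shares the counts, with exact permutation tests (SciPy 1.17.1). Scripts were checked on simulated data. DESeq2 1.42.0 was an alternative.

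The members and gene lists were chosen with earlier results of these data known. Named genes were all members, their paralogs HK1, PFKM, ALDOC and LDHB, GAPDH, PKM, up to 3 called genes per list with the largest change against GFP, and the gene nearest in pattern to each member. Marker lists for HEK293, blood, fibroblasts and gut epithelium were read in every library. Some named genes and marker values are not reported here.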

Additional observations from a re-analysis of the deposited data

Results flagged for a closer look

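In 104 groups of 4 libraries, the gap of the highest or lowest library to its neighbour was compared with the group's range, by Dixon's 95% criterion for 4 values. Chance alone flags about 1 of 20 groups, and 4 of the 104 did. PGAM1 in G659fs replicate 2 was at 400.3 CPM, while the other G659fs libraries lay at 388.1 to 388.3 CPM (ratio 0.984), so the gap arose from 3 nearly equal libraries. The PFKP share of phosphofructokinase TPM in R117fs replicate 2 was 37.2%, against 35.5% to 35.7% in the other R117fs libraries (ratio 0.911). The ENO1-201 share of ENO1 counts was 96.92% in WT replicate 3 (ratio 0.932) and 97.18% in R117fs replicate 4 (ratio 0.853), each the lowest of its group. The rise of PGAM1 with G659fs also passed without G659fs replicate 2.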

How the results depend on the processing

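Of the alternatives in the fit, those that changed a count of the 10 genes by over 1.5 times were these. Against GFP, the fit of the 8 libraries of R117fs and GFP alone gave 1 changed gene in place of 6. For R117fs against WT (0), DESeq2 gave 1, removal of each library's trend on GC content 5, a replicate block with that removal 5, and removal without R117fs replicate 4, an alternative added after seeing the data, 2. For G659fs against WT (1), DESeq2 gave 2, no low-count filter 0, an effective length offset 0, GC removal 4, the block with GC removal 5, the fit of 8 libraries 3, and GC removal without R117fs replicate 4 gave 5. For G659fs against R117fs (0), DESeq2 gave 1, GC removal 4, the block with GC removal 7, and GC removal without R117fs replicate 4 gave 2. Leaving out each library in turn gave 8 to 10 with WT against GFP, 4 to 7 with R117fs, 7 to 9 with G659fs, 0 to 1 for R117fs against WT, and 0 to 2 for G659fs against WT and against R117fs. Shares of all genes are not set beside these counts, so they are no result about the 10 genes. The causes were not tested.

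Counts over all genes moved too: over the alternatives WT against GFP ranged from 2222 to 6838 (3603 as reported), R117fs from 588 to 5151 (2620) and G659fs from 3067 to 7263 (4258), R117fs against WT from 154 to 3680 (1362), G659fs against WT from 100 to 4660 (953) and G659fs against R117fs from 796 to 5516 (2412). The fit of 8 libraries gave the lowest counts in the 3 comparisons with R117fs, leaving out G659fs replicate 2 gave the 100, and leaving out R117fs replicate 4 raised WT and G659fs against GFP to 6133 and 6723.

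Deviations of same-numbered libraries of different groups correlated at -0.062 to 0.16 over 24 pairs, 4 of them over 0.1. Those of differently numbered libraries correlated at -0.203 to 0.179, so the numbers showed no clear pairing. The labels do not say whether same-numbered libraries shared a day or culture, and these correlations cannot settle it. With the replicate block, 8, 7 and 8 of the 10 genes changed with WT, R117fs and G659fs against GFP, and 0, 1 and 0 between R117fs and WT, G659fs and WT, and G659fs and R117fs. No isozyme or transcript share passed its adjusted test under any alternative; 3 libraries against 4 cannot reach the threshold, so leaving out a library says nothing of those. Depth was ample for these genes, the smallest count being 633.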
